A study of Mus musculus with 4 samples.

Results

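Zfp36, Zfp36l1, Zfp36l2, Btg1, Btg2 and Tob1 encode regulators of mRNA decay, and their transcripts were followed in single cells of the mouse brain dissociated with and without inhibitors of transcription and translation. They were taken by gene symbol, each symbol matched 1 gene, and together they are 6 of the 31053 genes in the count matrices. The brains were whole, came from 4 male C57BL/6J mice aged 90 days, and were dissociated with enzymes, each giving 1 droplet library. For 2 animals (without inhibitors, replicates 1 and 2) the buffers held no inhibitor. For the other 2 (with inhibitors, replicates 1 and 2) actinomycin D and triptolide, which block transcription, were present from perfusion through digestion, and anisomycin, which blocks translation, during dissection and digestion. All 4 libraries carry the same batch label, and no strain, age or sex differed between the groups. The comparison asks which RNAs are higher in cells after a brain is taken apart when new transcription is possible. None of the 4 libraries is from before dissociation. A rise without inhibitors therefore cannot be told apart from a fall with them, and "rose" below means only a higher value without inhibitors.

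The 3 ZFP36 proteins are zinc-finger proteins that bind AU-rich stretches in the 3′ ends of mRNAs and recruit the CCR4-NOT complex, the main cytoplasmic deadenylase, which shortens the poly(A) tail and starts decay. ZFP36, also called tristetraprolin, is known for limiting cytokine mRNAs in macrophages, and its own gene is an immediate-early gene that is switched on quickly by growth factors and inflammatory stimuli. BTG1, BTG2 and TOB1 belong to the antiproliferative BTG/TOB family, which binds the CNOT7 and CNOT8 deadenylases of the same complex and so speeds deadenylation. Btg2 is likewise an early response gene, Btg1 is expressed in resting immune cells, and TOB1 also binds the poly(A)-binding protein PABPC1.

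The 4 libraries held between 5134359 and 7529804 UMIs (unique molecular identifiers, tags that mark single RNA molecules), and 9811 cells were kept of 12487 barcodes, 67 of which occurred in more than 1 library. Cells were clustered without any gene of the lists used here, and the 28 clusters fell into 14 classes by marker genes, so that a class name means cells like that type by its markers. The 9 classes with at least 20 cells in each animal were tested, from 3237 microglia-like to 165 macrophage/monocyte-like cells. All 8 microglia markers were detected in the microglia-like cells, with Tmem119 in 92.3% and P2ry12 in 92.0% of them. Microglia-like cells made up 32.8% and 31.7% of kept cells without inhibitors and 33.5% and 33.9% with them. Levels are given as CPM, the UMIs of a gene scaled to 1000000 UMIs of the same class in the same animal, and a fold change above 1 means a higher value in the animals without inhibitors.

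In the sum of all kept cells, Zfp36 had the largest log2 change of the 6 members, with higher values without inhibitors. Such a sum mixes the number of cells of a class with the RNA per cell, which are taken apart by class further on. Zfp36 stood at 149 and 104 CPM in the 2 animals without inhibitors and at 30.9 and 31.7 CPM in the 2 with inhibitors, so the groups did not overlap. The fitted change was 2.08 on the log2 scale (SE 0.18, 4.23-fold, edgeR quasi-likelihood test, adjusted p = 0.0267, n = 2 against 2). A gene counted as called at an adjusted p under 0.05 over all genes tested and an absolute log2 fold change over 0.58. By that rule 4 of 13757 genes (0.0291%) were called higher, and Zfp36 was the only one of the 6 members among them. Leaving out replicate 1 or replicate 2 of the animals with inhibitors took that call away (edgeR adjusted p = 0.159 and 0.415), with log2 changes of 2.04 and 2.12.

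Btg2 had 235 and 163 CPM in all cells without inhibitors and 108 and 102 CPM with inhibitors. The groups were apart, and the log2 change was 0.99 (SE 0.16), but the edgeR adjusted p was 0.174 and the gene was not called. DESeq2 called it on the same sums (log2 change 0.99, DESeq2 adjusted p = 0.000487). The other members lay between −0.06 for Tob1 and 0.16 for Btg1 on the log2 scale in all cells and were not called, with edgeR adjusted p-values from 0.841 to 0.975. Zfp36 and Btg2 are both on the gene list that the study picked on these same libraries, so their direction is not independent evidence here. Zfp36 is also on a list of 25 genes from sorted microglia of other animals.

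**Figure D1:**
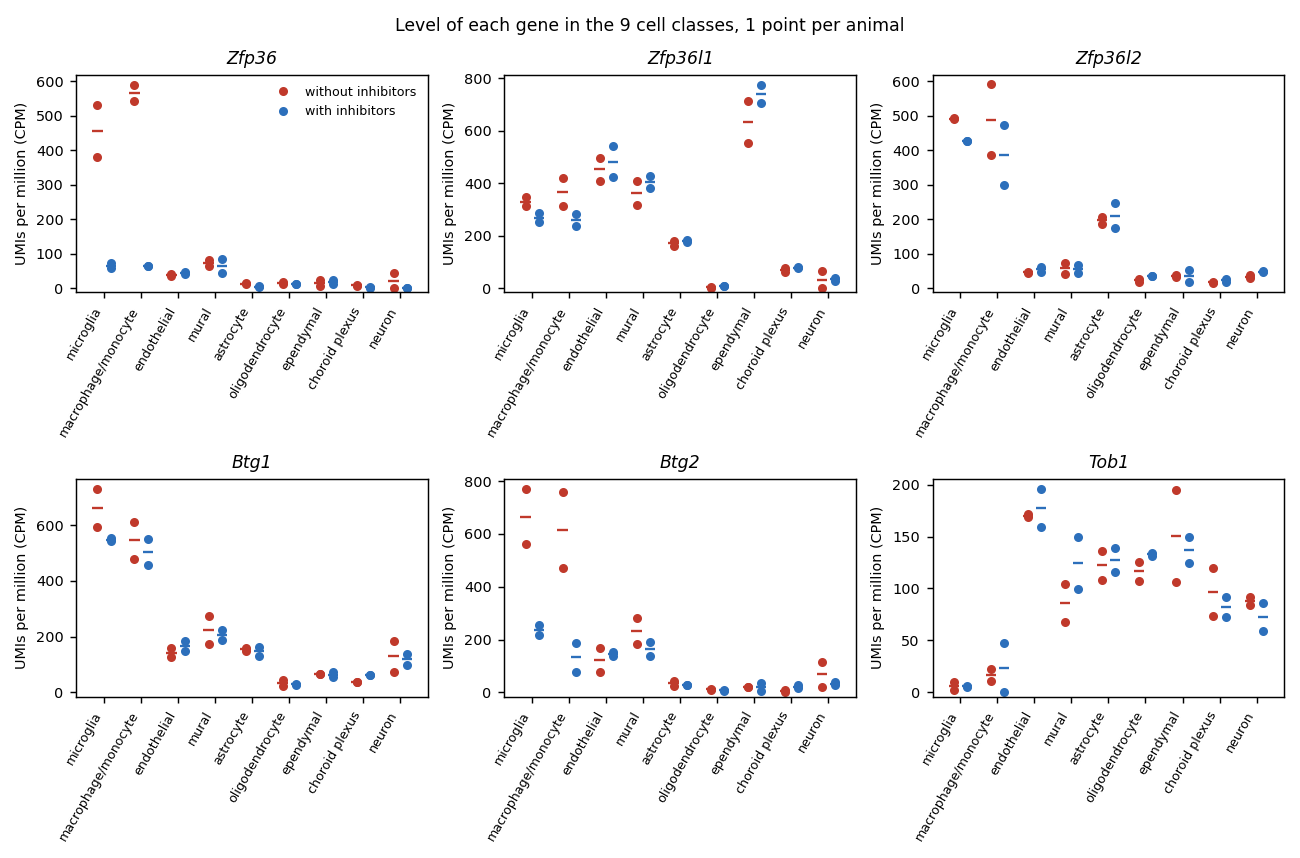
CPM of each gene (vertical axis, linear, its own scale in each panel) in the 9 tested classes, with 1 point per animal and a dash at the mean of the 2 animals of a group. Zfp36 and Btg2 of the animals without inhibitors stand above those with inhibitors in microglia-like and macrophage/monocyte-like cells, while Tob1 is lowest in these 2 classes.

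In microglia-like cells Zfp36 also rose without inhibitors. The gene is on chromosome 7, at chr7:28376784-28380253 on the minus strand of GRCm38. Its level was 532 and 380 CPM without inhibitors (582 and 477 UMIs) and 71.9 and 57.2 CPM with them (74 and 70 UMIs). The lower animal without inhibitors was thus far above the higher animal with inhibitors. The fitted log2 change was 2.85 (SE 0.14, 7.23-fold, edgeR adjusted p = 1.04e-37), and over the 10 alternative analyses it ran from 2.60 to 3.12 with the gene called in each of them. An annotated antisense gene that overlaps Zfp36, Gm44710, had 1 UMI in all kept cells.

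Zfp36l1 and Zfp36l2, the other RNA-binding members, were not called in the same cells. Zfp36l1 (chr12:80107754-80113013, minus strand, GRCm38) had 347 and 313 CPM without and 252 and 285 CPM with inhibitors, a log2 change of 0.32 (SE 0.11, edgeR adjusted p = 0.311). Zfp36l2 (chr17:84183931-84187947, minus strand, GRCm38) had 489 and 492 CPM against 426 and 427 CPM, a log2 change of 0.23 (SE 0.10, edgeR adjusted p = 0.638). In both genes the 2 animals without inhibitors were above the 2 with inhibitors, by a margin that did not pass the test. All 5 members tested in microglia-like cells showed such non-overlapping values, against 14.6% of the 8736 genes tested there.

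Btg2 was the other member called in microglia-like cells. It lies at chr1:134075170-134079120 on the minus strand of GRCm38. Its level was 770 and 560 CPM without inhibitors (842 and 703 UMIs) and 256 and 219 CPM with inhibitors (264 and 268 UMIs). The groups did not overlap, and the 2 animals without inhibitors differed from each other by less than either did from the animals with inhibitors. The log2 change was 1.51 (SE 0.11, 2.86-fold, edgeR adjusted p = 3.22e-23), and the gene stayed called in all 10 alternatives, between 1.27 and 1.73. Without inhibitors, 37 of 8736 genes (0.424%) were called higher in these cells, and Zfp36 and Btg2 were 2 of them.

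Btg1, the closest relative of Btg2, lies at chr10:96617006-96622809 on the plus strand of GRCm38. It had 732 and 594 CPM without and 543 and 553 CPM with inhibitors. Its log2 change was 0.30 (SE 0.10, edgeR adjusted p = 0.255), which did not pass. Tob1 (chr11:94211454-94215495, plus strand, GRCm38) was too low to be tested in microglia-like cells, with 2 and 13 UMIs without and 5 and 8 UMIs with inhibitors.

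Btg2 and Btg1 are relatives of which one was called in microglia-like cells and the other was not, and the 250 bases upstream of the RefSeq start of each gene are shown for that reason (GRCm38.p6, read 5′ to 3′ on the strand of the gene, with no annotated exon inside). The Btg2 stretch is chr1:134079156-134079405 on the minus strand and the Btg1 stretch chr10:96616751-96617000 on the plus strand. Capitals mark matches on either strand to the cAMP response element TGACGTCA, its first part TGACG, the box CCAAT and the TATA box TATAAA.
Btg2: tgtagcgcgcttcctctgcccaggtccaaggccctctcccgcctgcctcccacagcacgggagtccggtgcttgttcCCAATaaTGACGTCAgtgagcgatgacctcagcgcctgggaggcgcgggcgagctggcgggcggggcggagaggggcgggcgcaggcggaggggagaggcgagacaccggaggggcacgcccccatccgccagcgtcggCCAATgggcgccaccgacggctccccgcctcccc
Btg1: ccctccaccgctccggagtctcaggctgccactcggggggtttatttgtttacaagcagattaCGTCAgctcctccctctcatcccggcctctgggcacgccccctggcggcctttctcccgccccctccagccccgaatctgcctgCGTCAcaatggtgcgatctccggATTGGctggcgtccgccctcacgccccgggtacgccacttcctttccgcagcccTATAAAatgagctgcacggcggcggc
The Btg2 stretch holds 1 match to TGACGTCA, which also counts as matches to TGACG on both strands, and 508 of 32851 promoters searched over the same length (1.55%) hold one. The Btg1 stretch has no such match but 2 of TGACG alone, which 17.8% of promoters hold, and 1 TATA box, which 12.4% hold. A match to GCGNGGGCG, the pattern bound by early growth response factors, was found in Btg2 and in Zfp36 and in 4.70% of promoters. The window of Zfp36 also holds a CArG box, as 1.47% of promoters do; its sequence is not shown because it overlaps annotated exons of the gene. Neither TGANTCA, the AP-1 pattern, nor the NF-kB pattern occurs in the windows of Zfp36 and Btg2. RefSeq windows were found for 5 of the 6 members, all but Zfp36l2, and such letters describe a window and no use of it.

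Within the microglia-like class the direction of Zfp36 and Btg2 was shared by its 2 large clusters. In the cluster of 2510 cells with Cx3cr1 and Tmem119 among its leading genes, Zfp36 stood at 561 and 400 CPM against 69.1 and 47.3 CPM, and Btg2 at 822 and 587 CPM against 270 and 231 CPM. In the cluster of 699 cells led by Trem2 and Ctss, Zfp36 stood at 296 and 255 CPM against 84.3 and 85.3 CPM, and Btg2 at 338 and 400 CPM against 169 and 192 CPM. Groups were apart for both genes in both clusters, with a wider gap in the larger cluster; the difference between the clusters was not tested. The remaining 28 cells, 21 of them from replicate 2 with inhibitors, held 11 Zfp36 and 12 Btg2 UMIs.

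Markers of other cell types within the microglia-like class were compared between the groups, and their part in the changes was not tested. The 9 macrophage/monocyte markers were all detected and summed to 316 and 382 CPM without and to 422 and 520 CPM with inhibitors, which is the opposite direction to Zfp36 and Btg2. Of the genes that define these cells, Mrc1 had 7 UMIs and Pf4 had 10 UMIs in the whole class. The 5 erythrocyte markers summed to 506 and 772 CPM without and to 145 and 270 CPM with inhibitors, the same direction as Zfp36 and Btg2. In the erythrocyte-like cells themselves Zfp36 stood at 28.4 and 31.9 CPM without and at 55.1 and 30.8 CPM with inhibitors. These values rest on 13 UMIs, 2 to 6 per animal. Each was below the value of microglia-like cells in the same animal, but counts this low do not fix the order with inhibitors. The 8 oligodendrocyte markers summed to 1018 and 939 CPM without and to 1196 and 1791 CPM with inhibitors.

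**Figure D2:**
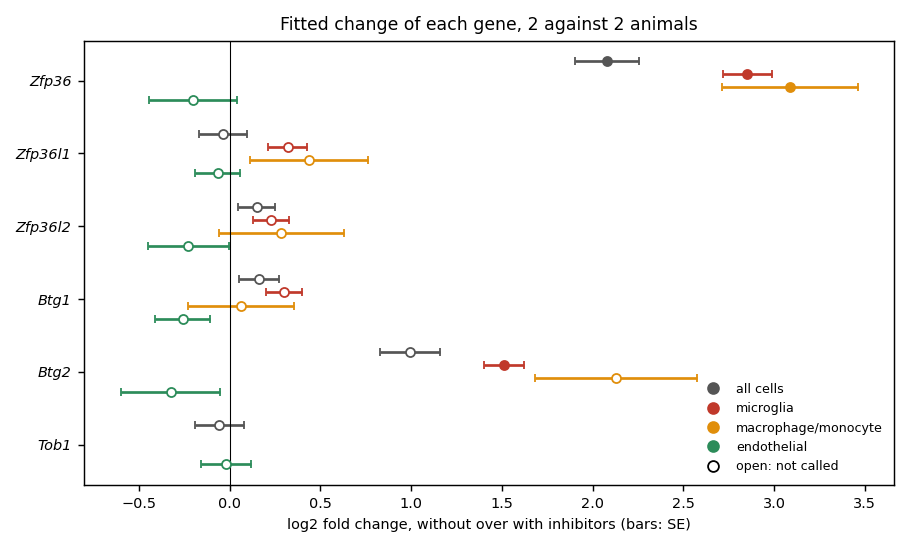
Fitted log2 fold change (horizontal axis, without over with inhibitors, bars show the SE) of each gene in all cells, microglia-like, macrophage/monocyte-like and endothelial-like cells, with filled points for called genes. Zfp36 is filled in the first 3 of these and Btg2 in microglia-like cells, at 1.51, while the endothelial points of Zfp36 and Btg2 lie at −0.20 and −0.33.

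Macrophage/monocyte-like cells, 165 in all, were the other class with a called member. Zfp36 had 52 and 52 UMIs without inhibitors, or 590 and 543 CPM, and 4 and 4 UMIs with inhibitors, or 63.1 and 62.8 CPM. The groups were far apart even though counting error alone gave the value of 63.1 CPM an exact 95% Poisson interval from 17.2 to 162 CPM. The log2 change was 3.09 (SE 0.37, 8.50-fold, edgeR adjusted p = 0.0101). Of 973 genes tested in this small class 6 (0.617%) were called higher. With a stricter filter on cells the change was 2.70 and no longer called (edgeR adjusted p = 0.0697).

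Btg2 was not called in the macrophage/monocyte-like cells, although its values did not overlap, with 760 and 470 CPM without and 78.9 and 188 CPM with inhibitors. Its log2 change of 2.13 (SE 0.45) missed the threshold (edgeR adjusted p = 0.135). With 1 animal left out, in fits that leave 1 animal in a group, the log2 change of Btg2 ran from 1.61 to 2.89. Zfp36l1 (log2 change 0.44), Zfp36l2 (0.29) and Btg1 (0.06) were not called (edgeR adjusted p from 0.956 to 0.994), and Tob1 had 6 UMIs and was not tested. Values of both animals without inhibitors above both with inhibitors were found for Zfp36, Btg2 and Zfp36l1, and for 21.4% of all genes tested in the class.

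The macrophage/monocyte-like class joined a pair of clusters that differ in their leading genes. The 67 cells led by Pf4, Cbr2 and Mrc1 held Zfp36 at 975 and 603 CPM without and at 0 and 118 CPM with inhibitors. The 98 cells led by H2-Aa, Cd74, Plac8 and Ccr2 held it at 338 and 522 CPM without and at 80.7 and 26.1 CPM with inhibitors. Both showed the higher level without inhibitors in each animal. The class also holds lymphocyte markers, which summed to 488 and 1012 CPM without and to 505 and 628 CPM with inhibitors, overlapping between groups. They were not split by cluster. The 7 neutrophil markers summed to 6786 and 15030 CPM without and to 31.5 and 13237 CPM with inhibitors. The 5 cells with at least 10 UMIs of these markers carried 1 of the 112 Zfp36 UMIs and 2 of the 129 Btg2 UMIs of the class.

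No member was called in the other 7 tested classes by edgeR or DESeq2. DESeq2 gave an adjusted p to only 452 genes in oligodendrocyte-like cells, where edgeR tested 6512. In choroid plexus-like cells DESeq2 gave one to 1484 genes, where edgeR tested 4616. A gene without an adjusted p cannot be called, so the absence of DESeq2 calls in these 2 classes says little. At an unadjusted edgeR p under 0.05 stood Btg2 in mural-like cells, and Zfp36l2 in oligodendrocyte-like cells with 17.4 and 26.6 CPM without and 35.9 and 34.0 CPM with inhibitors (edgeR adjusted p = 0.488). The share of tested genes called there was 0.0362% in endothelial-like, 0.128% in mural-like, 0.0499% in astrocyte-like, 0.200% in oligodendrocyte-like, 4.55% in choroid plexus-like and 0.0923% in neuron-like cells. In ependymal-like cells edgeR and DESeq2 both called 0 of 4014 genes (0%), and the unadjusted edgeR p was under 0.05 for 151. Endothelial-like cells gave the next largest number of Zfp36 and Btg2 UMIs. Zfp36 stood there at 41.6 and 34.6 CPM without and at 40.2 and 45.6 CPM with inhibitors, so that the groups overlapped (log2 change −0.20, SE 0.24, edgeR adjusted p = 0.952). Btg2 stood at 166 and 77.8 CPM without and at 152 and 137 CPM with inhibitors (log2 change −0.33, SE 0.27, edgeR adjusted p = 0.942). The animals without inhibitors were the highest and the lowest of the 4. Without replicate 1 of that group, which leaves it 1 animal, the log2 change of Btg2 was −0.84.

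Mural-like cells carry markers of the pericytes and smooth muscle cells of vessel walls. These 9 markers summed to 14476 and 15587 CPM without and to 17264 and 12856 CPM with inhibitors. The class also held endothelial markers, at 11204 and 10733 CPM against 10158 and 11722 CPM. Erythrocyte markers stood at 39952 and 1465 CPM against 6041 and 5945 CPM. Their part in the levels of this class was not tested. Btg2 had 281 and 184 CPM in mural-like cells without and 189 and 139 CPM with inhibitors. Its log2 change of 0.55 (SE 0.25) was not called (edgeR adjusted p = 0.742). The class joins 3 clusters that did not share this direction. In the 43 cells led by Tagln, Acta2 and Myh11, genes of smooth muscle, Btg2 stood at 1763 and 761 CPM without and at 279 and 106 CPM with inhibitors (68 UMIs in all). Zfp36 stood there at 467 and 285 CPM without and at 0 and 106 CPM with inhibitors (20 UMIs in all). Both genes were thus higher in both animals without inhibitors in this cluster, which holds 8 to 14 cells per animal, under the minimum of 20, and was not tested. In the 167 cells led by Rgs5, Ano1 and Notch3, Btg2 stood at 146 and 109 CPM against 175 and 142 CPM, and in the 130 cells led by Kcnj8 at 102 and 130 CPM against 170 and 131 CPM. Zfp36 was too low to be tested in the remaining 5 of the 7 classes. In astrocyte-like cells it had 10 and 11 UMIs without and 1 and 4 with inhibitors (13.5 and 11.1 against 1.63 and 5.92 CPM). Choroid plexus-like cells had 6 and 5 against 0 and 1 UMIs (9.33 and 6.42 against 0 and 4.39 CPM). Oligodendrocyte-like cells had 9 and 10 against 8 and 9 UMIs (13.1 and 17.7 against 12.5 and 10.6 CPM). Ependymal-like cells overlapped, with 1 and 6 against 3 and 4 UMIs. In neuron-like cells 7 UMIs came from replicate 1 without inhibitors and 0 from the other 3 animals, and 0 of 252604 UMIs with inhibitors allows a level of up to 11.9 CPM. Intervals and such limits cover counting error only.

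The changes of Zfp36 and Btg2 differed between classes when all 9 were put in 1 edgeR fit with the animal as a block. The test that any class differed called 53 of 12411 genes (0.427%), among them Zfp36 (edgeR adjusted p = 8.45e-22) and Btg2 (edgeR adjusted p = 9.58e-17) and none of the other 4 members (edgeR adjusted p = 1 for each). For Btg2 the log2 change in microglia-like cells exceeded the mean of the 7 classes other than these and macrophage/monocyte-like cells by 1.35 (SE 0.24, edgeR adjusted p = 2.15e-05), in a contrast that called 0.170% of genes. Leaving out replicate 1 with inhibitors made that difference 1.10, which was not called (edgeR adjusted p = 0.999).

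For Zfp36 the mean of 7 classes is undefined because the neuron-like cells with inhibitors hold no UMI of it, and a pair of contrasts were chosen after seeing this. Against the mean of 6 classes without neuron-like cells, the change of Zfp36 in microglia-like cells was larger by 2.08 (SE 0.59), which was not called (edgeR adjusted p = 0.190), and that of Btg2 by 1.53 (SE 0.25, edgeR adjusted p = 6.81e-07). This contrast called 0.176% of genes, and without replicate 1 with inhibitors Btg2 was no longer among them. Against endothelial-like cells alone, Zfp36 differed by 3.02 (SE 0.32, edgeR adjusted p = 1.72e-18) and Btg2 by 1.83 (SE 0.21, edgeR adjusted p = 4.45e-15), among 0.206% of genes called, and the difference of each gene was called in every alternative that could give it. Between microglia-like and macrophage/monocyte-like cells the differences were −0.50 (SE 0.57) for Zfp36 and −0.85 (SE 0.40) for Btg2, neither called (edgeR adjusted p = 0.999 for both), in a contrast that called 0.0641% of genes.

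By their share of UMIs, microglia-like cells held 81.3% and 76.0% of all Zfp36 UMIs without inhibitors and 53.2% and 42.4% with inhibitors. For Btg2 these shares were 74.4% and 71.4% without and 54.4% and 50.4% with inhibitors. Shares of Zfp36l2 in the same class, between 59.9% and 64.7%, overlapped between the groups. Of the difference in Zfp36 between the group means over all kept cells, 95.2 CPM, the microglia-like class accounted for 89.4% and the macrophage/monocyte-like class for 9.34%. For Btg2 the difference was 94.3 CPM, of which these classes accounted for 96.2% and 9.53%, and endothelial-like cells for −11.2%.

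To compare cells at a common depth, each cell with at least 1000 UMIs was thinned to 1000 at random, which left out 488 of 3237 microglia-like cells. The share of cells with a UMI also rises with the mean level, so it cannot separate more expressing cells from more RNA per cell. Of the remaining cells, 28.0% and 22.1% without inhibitors held a Zfp36 UMI, against 6.91% and 5.01% with inhibitors. Exact 95% binomial intervals ran from 24.6% to 31.7% and from 19.2% to 25.3% in the first group and from 5.02% to 9.22% and from 3.57% to 6.81% in the second. Without thinning the shares were 32.9% and 27.2% against 9.89% and 6.95%. In choroid plexus-like cells, where Zfp36 was near 0, the thinned shares were 0.758% and 1.23% without inhibitors, and 0 of 130 and 0 of 88 cells held a UMI with inhibitors, which allows shares of up to 2.31% and 3.41% (3 cells of the total). Such limits cover cells with a UMI at this depth, not cells that express the gene. Median UMIs per cell before thinning were 1271 to 1462 in microglia-like and 1324 to 2663 in choroid plexus-like cells.

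Cells with several Zfp36 UMIs were found almost entirely without inhibitors. At the common depth, 5.73% and 3.53% of microglia-like cells without inhibitors held 3 or more Zfp36 UMIs, and 0 of 608 and 0 of 759 cells did with inhibitors, which by the same rule allows shares of up to 0.493% and 0.395%. Btg2 showed a smaller gap in the share of cells with any UMI, 36.1% and 28.8% against 22.5% and 19.1%. Cells with 3 or more Btg2 UMIs made up 9.29% and 5.43% without and 0.822% and 0.264% with inhibitors. For Btg1 the share of cells with any UMI was 46.7% and 44.3% without and 40.8% and 43.6% with inhibitors, a difference of 3.32 percentage points. The share of macrophage/monocyte-like cells with a Zfp36 UMI at this depth was 37.8% and 32.4% without inhibitors, and 3.45% and 6.06% with them. Only 29 to 37 cells per animal of that class were deep enough.

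**Figure D3:**
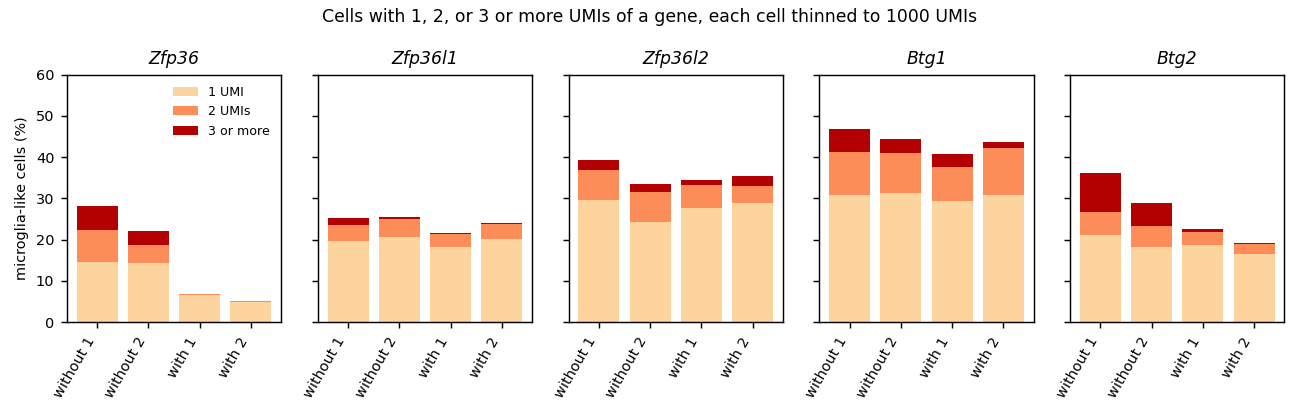
Share of microglia-like cells (vertical axis, percent) with 1, 2, or 3 or more UMIs of a gene in each of the 4 animals, after every cell was thinned to 1000 UMIs. The dark part, 3 or more UMIs, is 5.73% and 3.53% for Zfp36 and 9.29% and 5.43% for Btg2 without inhibitors, and at most 0.822% for either gene with inhibitors.

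Without inhibitors, Btg2 was found more often in microglia-like cells that held Zfp36 than in those that did not. Among cells with a Zfp36 UMI, 53.6% and 46.6% also held a Btg2 UMI, while 29.2% and 23.7% of cells without a Zfp36 UMI did. With inhibitors these shares were 16.7% and 21.1% against 23.0% and 19.0%, with only 42 and 38 cells that held Zfp36. Cells of 1 animal share its library, so that no test was run on them.

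Cells with Zfp36 and Btg2 also tended to hold other genes that respond to dissociation. At the common depth, cells were ranked by their summed UMIs of the 24 other genes from the sorted-microglia list, and 246 of 646 and 206 of 736 cells without inhibitors lay above the 99th percentile of the cells with inhibitors, which was 7 UMIs. Above this level 58.5% and 52.4% of cells held a Zfp36 UMI and 57.3% and 50.0% a Btg2 UMI. At or below it the shares were 9.25% and 10.4% for Zfp36 and 23.0% and 20.6% for Btg2. In cells with inhibitors at or below it, Zfp36 was held by 6.99% and 4.90%, below both animals without inhibitors, and Btg2 by 22.6% and 19.1%, which overlap with them. The other members differed less between these cells. Btg1 was held by 58.1% and 53.9% of the cells above the level and by 39.8% and 40.6% of those at or below it. For Zfp36l1 the shares were 33.3% and 31.1% against 20.2% and 23.4%, and for Zfp36l2 they were 42.7% and 35.0% against 37.0% and 32.8%. The cut falls in a continuous range, with 47 and 73 cells within 1 UMI of it without inhibitors.

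The order of the classes was also read for each gene with inhibitors present. With inhibitors, Zfp36 was highest in microglia-like (64.5 ± 10.4 CPM, SD, n = 2), mural-like (64.1 ± 28.8) and macrophage/monocyte-like cells (62.9 ± 0.20), whose values overlapped. Endothelial-like cells followed at 42.9 ± 3.82 CPM, overlapping with mural-like cells only, and oligodendrocyte-like cells were at 11.5 ± 1.37 CPM. Without inhibitors the order began with macrophage/monocyte-like (566 ± 33.5 CPM) and microglia-like cells (456 ± 108 CPM), and mural-like cells were at 72.1 ± 13.6 CPM.

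Zfp36l1 was highest in ependymal-like cells, the ciliated lining of the ventricles, at 740 ± 50.4 CPM with inhibitors, apart from endothelial-like cells at 482 ± 82.8 CPM. Mural-like cells (405 ± 31.0 CPM) overlapped with endothelial-like cells and stood apart from microglia-like cells (268 ± 23.7 CPM). The lowest class was oligodendrocyte-like, with 8.01 ± 0.28 CPM. Zfp36l2 had another order, with microglia-like (427 ± 0.58 CPM) and macrophage/monocyte-like cells (386 ± 124 CPM) overlapping at the top, then astrocyte-like cells at 210 ± 50.4 CPM, and the 6 other classes at or below 55.2 CPM on average.

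Btg1 was likewise highest in microglia-like (548 ± 7.12 CPM) and macrophage/monocyte-like cells (503 ± 65.2 CPM), which overlapped, followed by mural-like cells at 207 ± 24.1 CPM. The clusters of the macrophage/monocyte-like class differed with inhibitors. Btg1 stood at 524 and 601 CPM in the cluster led by H2-Aa and at 217 and 472 CPM in that led by Pf4. The latter overlapped with mural-like cells, at 224 and 190 CPM. In neural progenitor-like cells, a class of 104 cells that was not tested because 1 animal had under 20, Btg1 was higher still, at 1742 and 955 CPM without and 1547 and 1278 CPM with inhibitors. Every animal thus had a higher CPM of Btg1 in these cells, which are led by Igfbpl1, Dlx2, Sox11 and Top2a, than in its microglia-like cells. Btg2 was highest in microglia-like cells with inhibitors (238 ± 26.5 CPM), apart from mural-like cells (164 ± 35.6 CPM), which overlapped with endothelial-like cells (144 ± 10.4 CPM).

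Tob1 had an order of its own, although its 2 highest classes were also the 2 highest for Zfp36l1. It was highest in endothelial-like (177 ± 25.8 CPM), ependymal-like (137 ± 17.2 CPM) and oligodendrocyte-like cells (133 ± 2.08 CPM) with inhibitors, and the first 2 of these did not overlap. It was lowest in macrophage/monocyte-like (23.7 ± 33.5 CPM) and microglia-like cells (5.70 ± 1.19 CPM). The 2 groups overlapped for Tob1 in both of the lowest classes, and in astrocyte-like cells, with 108 and 136 CPM without and 139 and 115 CPM with inhibitors.

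Over the 36 class sums of the 9 classes and 4 animals, the genes most like each member were sought among 7656 others with a mean of at least 20 CPM. These correlations describe points that share libraries and depth, and they carry no test. For Zfp36 the closest were Btg2 (Pearson r = 0.87), Atf3 (0.86) and Lyl1 (0.85), and for Btg2 they were Junb (0.90), Tm6sf1 (0.90) and Ier5 (0.90). Zfp36l2 came closest to Nrros (0.95), Prkcd (0.91) and Il17ra (0.90), and Btg1 to Prkcd (0.93), Ppp1r18 (0.91) and Apobec3 (0.91). Zfp36l1 was most like Laptm4a (0.87), Cpne3 (0.86) and Itpkb (0.85), and Tob1 was most like Nfib (0.86), Cuedc1 (0.85) and Klf9 (0.85).

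The genes of the decay machinery and of related regulators, 62 in 6 lists, were examined in microglia-like cells next. Of these 57 were tested, 0 were called by edgeR or DESeq2 in either direction, and 3 had an unadjusted edgeR p under 0.05. Of all 8736 genes tested there, edgeR called 37 higher and 1 lower, and 554 had an unadjusted edgeR p under 0.05. With so few calls over all genes, 0 of 57 does not set these lists apart. The median log2 change of the 57 was −0.03, beside −0.0018 for all genes tested, and 25 of the 57 had a positive sign. All 14 genes of the CCR4-NOT, PAN and PARN deadenylases were tested, with log2 changes between −0.40 for Cnot6l and 0.47 for Parn. The decapping and 5′-3′ decay genes (14 tested) ran from −0.36 for Dcp2 to 0.58 for Edc3, and the exosome genes (14 tested) from −0.61 for Skiv2l to 0.29 for Exosc9.

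The other RNA-binding regulators of AU-rich or stem-loop mRNAs, 8 of them tested, had a lowest log2 change of −1.06 for Khsrp, a decay-promoting factor, which was not called (edgeR adjusted p = 0.398). The 5 poly(A)-binding and PABP-interacting genes stayed between −0.18 and 0.15. Of the relatives outside the 6 members, Btg3 (log2 change −0.31) and Tob2 (0.03) were tested and neither was called (edgeR adjusted p = 0.988 and 0.990). In all cells edgeR and DESeq2 likewise called 0 of 59 genes of these 6 lists, with 2 at an unadjusted edgeR p under 0.05. In the 8 other classes both tools called 0, with 0 to 5 genes at an unadjusted edgeR p under 0.05.

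Among 22 mRNAs known as targets of ZFP36, 13 were tested in microglia-like cells and 2 were called higher without inhibitors. Dusp1, a phosphatase that switches off MAP kinases, went from 5.52 ± 3.18 CPM with inhibitors to 293 ± 85.7 CPM without (log2 change 5.77, SE 0.28, edgeR adjusted p = 3.63e-14). Socs3, an inhibitor of cytokine receptor signalling, went from 24.4 ± 7.06 to 147 ± 2.85 CPM (log2 change 2.59, SE 0.19, edgeR adjusted p = 9.39e-33). Both are also on the list that the study picked on these libraries, of which 11 of 15 tested genes other than the 6 members were called in these cells, as were 15 of 23 tested genes of the sorted-microglia list. The median log2 change of the 13 was 1.43, beside −0.0018 for all genes tested, and 10 of them had a positive sign. Fos, Ccl3, Ccl4 and Nfkbiz among the 13 are also on the study's list or the sorted-microglia list. The median is thus not independent of these lists. The tested targets on neither list were Il6 (log2 change −0.32), Myc (−0.15), Il1a (−0.04), Cdkn1a (0.08), Plk3 (0.09), Ier3 (1.43) and Ccl2 (1.63).

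The other 11 target mRNAs tested were not called, and those named here were chosen after their values were seen. Fos had group means of 583 and 2.68 CPM but was not called (log2 change 7.74, SE 1.11, edgeR adjusted p = 0.534). Ccl3 and Ccl4, chemokines of activated microglia, had log2 changes of 2.66 (SE 0.89) and 2.63 (SE 0.93) and were not called (edgeR adjusted p = 0.807 and 0.819). Il1a (log2 change −0.04), Myc (−0.15), Plk3 (0.09) and Cdkn1a (0.08) stayed near 0, with edgeR adjusted p-values from 0.988 upward. In macrophage/monocyte-like cells 2 of 5 tested targets were called higher, Dusp1 and Fos, the former with 0 CPM in both animals with inhibitors. All 5 had a positive sign there, with a median log2 change of 5.78. Of these, Dusp1, Fos, Ccl3 and Ccl4 are on the study's or the sorted-microglia list, and only Ccl2 (log2 change 3.59, not called) is on neither. Fos also rose in mural-like and oligodendrocyte-like cells (log2 changes 3.73 and 5.64, edgeR adjusted p = 6.47e-10 and 2.45e-05), where no member of the 6 was called.

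**Figure D4:**
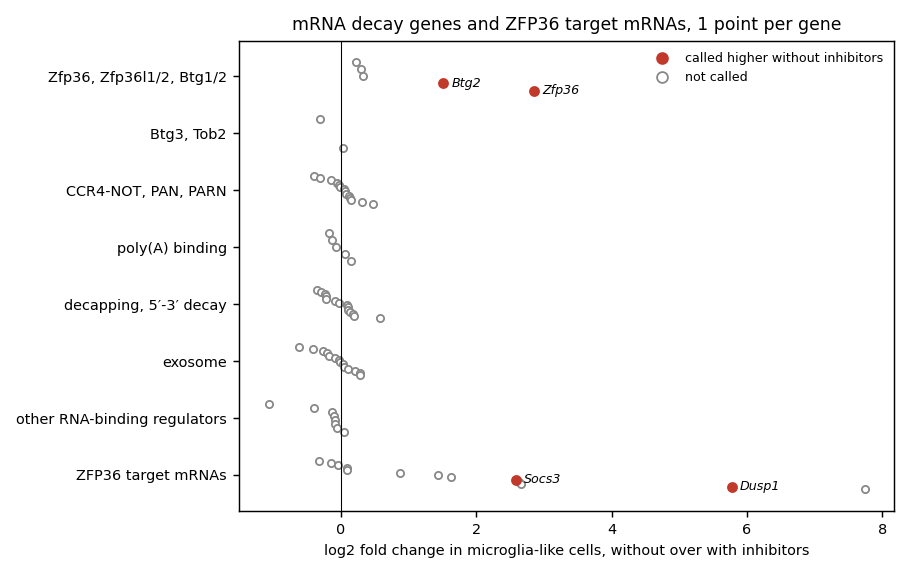
Log2 fold change in microglia-like cells (horizontal axis, without over with inhibitors) of each tested gene, 1 point per gene, in rows for the members, their relatives, the decay machinery and known ZFP36 target mRNAs. Filled points (Zfp36, Btg2, Socs3 and Dusp1) were called higher, and the 57 genes of the 6 middle rows lie between −1.06 and 0.58.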

How the data were processed

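Single-cell RNA-seq libraries (10x Genomics 3′ v2 chemistry) of whole brain were made from 4 mice, 1 library per animal. Per the labels and the methods of the study, the authors mapped reads to mm10 (GRCm38) with Cell Ranger 3.0.0, and the deposited matrices hold raw UMI counts per gene and cell. The submitters' processing notes also name bcl2fastq and Seurat. Whether the count matrices were otherwise filtered is not given in the sources used here.

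From these counts, cells with at least 400 genes and at most 20% mitochondrial UMIs were kept (10067), and 256 simulated-neighbour doublets (2.54%) were removed. The 9811 remaining cells held 20542612 UMIs and were clustered (Python 3.11.15, scikit-learn 1.9.0, leidenalg 0.10.2, resolution 1) without 116 listed genes. A cluster was named when at least 3 markers of a class were up in it, and 69 cells stayed unnamed. UMIs were summed per animal and class and tested with edgeR 4.0.16 in R 4.3.3 (quasi-likelihood test, TMM scaling, filterByExpr, robust estimation), with Benjamini-Hochberg adjustment over all genes tested. Calls needed an adjusted p under 0.05 together with a log2 change of more than 0.58 in size. For differences between classes the limit was the adjusted p alone, in a fit over the sums of 9 classes with the animal as a block. DESeq2 1.42.0, other scaling, filters and left-out animals were alternatives, and each test was run on simulated counts first. The smallest p of an exact permutation test of 2 against 2 animals is 0.333, and none was used for single values.

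The 6 members and the gene lists were chosen with earlier results of these data known. Other genes were named if called, at most 5 per list, or as the ends of a list's range, or as the 3 genes most correlated with a member on log2(CPM + 10). The labels do not say that equal replicate numbers mark a shared litter or day. Replicates differed from each other by more than sampling noise, at chi-square values of 5.87 and 4.97 per degree of freedom. Total UMIs per library limit the precision of low genes, such as Tob1 in microglia-like cells. Levels were not compared between genes, because the tags come from 3′ ends and no length scaling applies.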

Additional observations from a re-analysis of the deposited data

Results flagged for a closer look

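Several changes of Zfp36 and Btg2 were flagged because they differed between cell classes by a test of the difference itself. In the fit over 9 classes, the change between animals without and with inhibitors differed between any of them for Zfp36 (edgeR adjusted p = 8.45e-22) and for Btg2 (edgeR adjusted p = 9.58e-17). For Btg2 the log2 change in microglia-like cells exceeded the mean of 7 other classes by 1.35 and the mean of 6 of them, without neuron-like cells, by 1.53. Against endothelial-like cells alone, the log2 change in microglia-like cells was larger by 3.02 for Zfp36 and by 1.83 for Btg2. The contrasts against 6 classes and against endothelial-like cells were added after seeing the data. Each group held 2 animals, too few for a test of single animals standing apart.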

How the results depend on the processing

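Of 337 recomputed values under 13 settings, 290 were counted as unchanged. For a log2 change this meant the same direction and side of the threshold. For a number of members called it meant an equal or close number, often 0 in both. For a share of cells it meant a shift smaller than the larger SD between animals of a group. Zfp36 and Btg2 were called in microglia-like cells under all 10 alternatives. In all cells 2 members were called with no filter on low counts, with DESeq2 and with the replicate block, and 0 to 2 with 1 animal left out. In macrophage/monocyte-like cells 2 were called with no filter and 0 under the stricter cell filter, which left 554 genes to test, and 1 to 2 with 1 animal left out; in endothelial-like cells the range was 0 to 1. With at least 1 UMI required in each class and group, 1 member (Btg2) differed between any classes and 1 against endothelial-like cells, since that requirement removes Zfp36. With 1 animal left out, 0 to 1 member differed from the mean of 7 and 0 to 1 from the mean of 6 classes.

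Log2 changes that reversed were small ones that were not called: under the stricter cell filter Zfp36l1 in all cells (0.0036), Zfp36 in endothelial-like cells (0.025) and Btg1 in macrophage/monocyte-like cells (−0.0052). With 1 animal left out the ranges were −0.19 to 0.13 for Zfp36l1 and −0.25 to 0.11 for Tob1 in all cells, −0.84 to 0.22 for Btg2 in endothelial-like cells, and −0.094 to 0.23 for Btg1 and −0.0066 to 0.62 for Zfp36l2 in macrophage/monocyte-like cells. The cause was not tested. The difference in the share of microglia-like cells with a UMI was 11.5 percentage points for Zfp36 at 500 UMIs per cell. At 2000 UMIs, which leaves 265 cells, it was 38.8 for Zfp36, 26.0 for Btg2, 12.05 for Zfp36l1, 6.36 for Zfp36l2 and −3.09 for Tob1.

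The number of all genes called moved more than that of the members. Against 4 in all cells it was 175 with no filter, 39 with DESeq2 and 51 with the replicate block, against 38 in microglia-like cells it ran from 30 to 55, and against 6 in macrophage/monocyte-like cells from 1 to 18. Deviations of equally numbered animals correlated at 0.087 over genes in all cells and at 0.031 in microglia-like cells, so the numbers were not taken as pairs. Olfactory ensheathing-like cells were found in replicate 1 of both groups only (29 and 32 cells, 0 in replicate 2), which replicates of the same number thus share; no label explains it. With the replicate block Btg2 was called in all cells (edgeR adjusted p = 0.00267), and the block changed no other call of a member. Depth limits Tob1 in myeloid cells and Zfp36 in neuron-like and choroid plexus-like cells, where few or no UMIs were counted.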
